A study of Mus musculus with 5 samples.

Results

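The 40 genes described here encode proteins that copy DNA in S phase (17 genes) or carry cells through G2 and mitosis (23 genes), and all 40 were found by symbol among the 34970 genes of the count table. Their levels were compared over 5 mouse RNA-seq libraries, 1 each, all labelled wild type: MCC, labelled as a myeloid-like cell complex; iPSC, induced pluripotent stem cells; MEF, embryonic fibroblasts; PB, labelled as plasma blood cells and described in the design text as CD45+; and BM, bone marrow. The series title concerns the direct reprogramming of fibroblasts into macrophages. How the MCC cells were made, the agents used, the strain, the age and whether animals were pooled are not stated in the labels. PolyA RNA from Trizol extracts was sequenced in every library.

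Dividing cells switch these genes on in successive waves. Before and during S phase, E2F transcription factors raise the genes for origin licensing, the MCM helicase, nucleotide synthesis and the replication clamp. Later, the MuvB complex with B-MYB and FOXM1 acts on genes for the mitotic cyclins, kinases, kinesins and spindle checkpoint. It works through CHR elements and the CCAAT boxes bound by NF-Y. In resting cells RB-family proteins hold these waves down, so these transcripts are widely read as a mark of cycling cells. Bone marrow holds many dividing blood precursors, mouse pluripotent cells cycle fast, and most blood leukocytes are at rest.

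Total counts were 47557598 in MCC, 43800105 in iPSC, 46517281 in MEF, 30078366 in PB and 40774101 in BM. Levels are in CPM, the read count of a gene put on the same scaled library size in each library. With 1 library per group, the differences could not be checked against replicates, and p-values were not computed. Folds carry 95% intervals for counting error only. A gene was called higher or lower at a ratio of at least 4-fold with at least 5 CPM in the higher library. The PB library carries a code set apart from those of the other 4 libraries, so PB cannot be told apart from a possible batch. Marker genes fitted the labels in part: the 10 macrophage genes summed to 13247 CPM in MCC, 23.1 in iPSC, 7.03 in MEF, 3994 in PB and 7491 in BM, and the 10 fibroblast genes to 31273, 1725, 28024, 851 and 1254 CPM in the same order. MCC thus held both macrophage and fibroblast transcripts at high levels. Elsewhere single genes made up most of some sums. Lyz2 alone held 3202 CPM of the macrophage sum in PB and 6849 CPM in BM. Fn1 alone held 1345 CPM of the fibroblast sum in iPSC, 678 CPM in PB and 1132 CPM in BM. The 8 leukocyte genes summed to 1921, 42.5, 5.23, 8862 and 8060 CPM, and the 10 pluripotency genes to 16.1, 3247, 2.54, 3.85 and 68.0 CPM, again in that order. Of the pluripotency sums, Sox2 alone held 15.1 CPM in MCC and Lin28a alone 67.7 CPM in BM.

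The promoters of the 2 classes are shown first, because the motifs in them differ between the S phase and the G2 and mitosis genes. RefSeq windows of 300 bases (GRCm38.p6, 250 before to 50 after the start of transcription) were available for 32 of the 40 genes, in 33 windows. The sequences below are read 5′ to 3′ on the gene's strand and end at the last base before the start. Capitals mark matches, on either strand, to the NF-Y box (letters CCAAT), the CHR element (letters TTTGAA) or an E2F site. The E2F site was searched in several forms, the form TTCCCGC as well as the form TTGGCGC, the form TTCGCGC and lastly the form TTGCCGC. Matches to different motifs may overlap. Cdc20, an activator of the anaphase-promoting complex, is shown for chr4:118437344-118437493 on the minus strand. Top2a, the topoisomerase that untangles sister chromatids, is shown for chr11:99024190-99024439 on the minus strand. Cdk1, the kinase that drives entry into mitosis, is shown for chr10:69352913-69353112 on the minus strand. Mcm5, a subunit of the replicative helicase, is shown for chr8:75109309-75109508 on the plus strand.
Cdc20: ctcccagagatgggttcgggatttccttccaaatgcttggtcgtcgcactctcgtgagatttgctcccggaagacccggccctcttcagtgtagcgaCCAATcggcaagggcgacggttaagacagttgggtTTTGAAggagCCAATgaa
Top2a: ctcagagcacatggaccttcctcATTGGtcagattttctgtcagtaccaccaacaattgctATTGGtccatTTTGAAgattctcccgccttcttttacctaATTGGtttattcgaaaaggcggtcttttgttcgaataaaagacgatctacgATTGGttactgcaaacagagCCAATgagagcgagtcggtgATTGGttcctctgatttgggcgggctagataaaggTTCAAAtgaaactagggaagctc
Cdk1: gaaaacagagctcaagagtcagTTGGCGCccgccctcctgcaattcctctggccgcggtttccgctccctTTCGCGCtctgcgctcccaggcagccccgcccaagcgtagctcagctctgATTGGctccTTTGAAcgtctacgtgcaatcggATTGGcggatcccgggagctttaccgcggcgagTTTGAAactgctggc
Mcm5: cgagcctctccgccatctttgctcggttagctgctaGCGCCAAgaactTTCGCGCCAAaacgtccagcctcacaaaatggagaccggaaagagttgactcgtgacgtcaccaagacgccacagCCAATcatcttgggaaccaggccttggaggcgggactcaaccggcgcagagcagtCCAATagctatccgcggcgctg

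The Cdc20 promoter held a CHR element at bases -18 to -13, counted from the start, between CCAAT boxes at -53 and -8. Top2a held 2 CHR elements and 6 CCAAT boxes, and Cdk1 held 2 CHR elements together with 2 E2F sites. Mcm5 held 3 E2F matches, 2 of them overlapping, and no CHR element. A CHR element was held by 2 of 15 S phase windows (13.3%), against 13 of 18 G2 and mitosis windows (72.2%) and 17.9% of all 32851 RefSeq windows of that length. The 2 S phase windows were those of Mcm2 and E2f8. E2F sites ran the other way, in 10 of 15 S phase windows (66.7%), 3 of 18 G2 and mitosis windows (16.7%; Ccnb1, Cdk1 and Mki67) and 9.57% of all windows. CCAAT boxes were found in 10 of 15 S phase windows (66.7%) and 16 of 18 G2 and mitosis windows (88.9%), against 37.4% of all. Birc5, Nusap1, Ccne1, E2f1 and Tyms held none of the 3 motifs in these windows. These matches are descriptions of letters, not of bound sites.

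**Figure D1:**
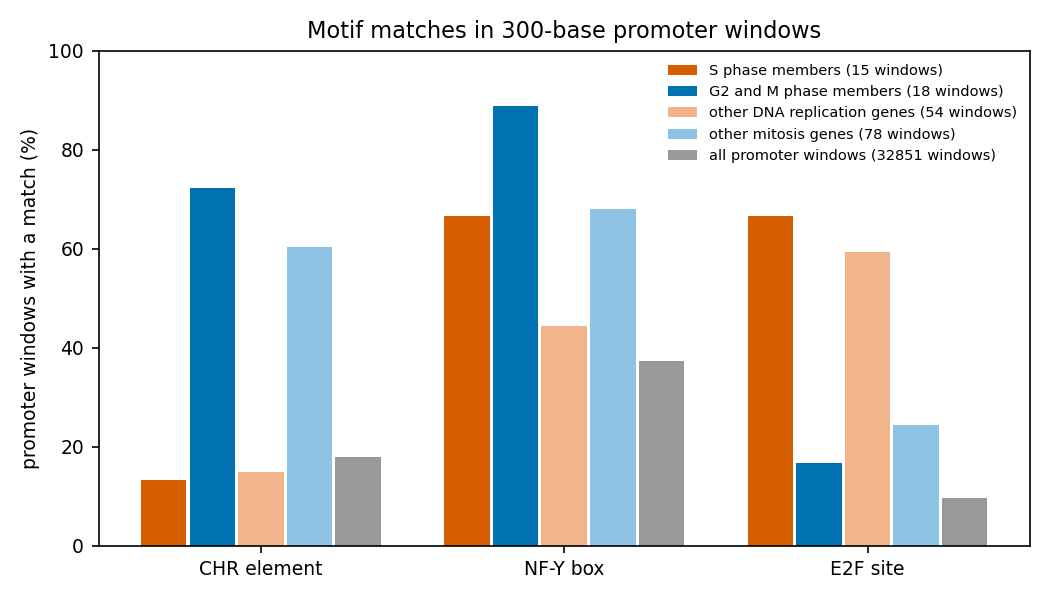
Share of 300-base RefSeq promoter windows (y axis, percent) that hold an NF-Y box, a CHR element or an E2F site, for the S phase genes, the G2 and M phase genes, the other replication and mitosis genes and all windows. CHR elements stand at 13.3% in the S phase genes and 72.2% in the G2 and M phase genes, and E2F sites at 66.7% and 16.7%.

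Every gene of the 40 was detected in every library, and their levels were ordered nearly alike. Summed over the 40 genes, the level was 1759 CPM in MCC, 6754 in iPSC, 3006 in MEF, 798 in PB and 8935 in BM. They took 0.160% of all counts in MCC, 0.806% in iPSC, 0.279% in MEF, 0.0792% in PB and 0.893% in BM. BM was the highest library for 29 genes and iPSC for 11, while PB was the lowest for 36 and MCC for 4. The single order BM, iPSC, MEF, MCC, PB, from high to low, held for 25 genes, and a further 10 differed from it only in that iPSC stood above BM. Which of BM and iPSC was the higher depended on the scaling for some genes, with iPSC highest for 17 when total counts were used and for 10 with DESeq2 size factors. Cdt1, Kif23, Mcm4 and Cenpa, the 4 genes lowest in MCC, departed from it through their PB level. Gins2 was the only gene with MEF above BM. In 8 genes a pair of neighbours in the order did not differ beyond counting error: Mcm4 (MCC and PB), Gins2 (MCC and BM), E2f1 and Nusap1 (MCC and MEF), Cenpa (MEF and PB), and Top2a, Aurka and Cenpe (iPSC and BM). In bulk RNA, fewer cycling cells and less RNA per cycling cell cannot be told apart.

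**Figure D2:**
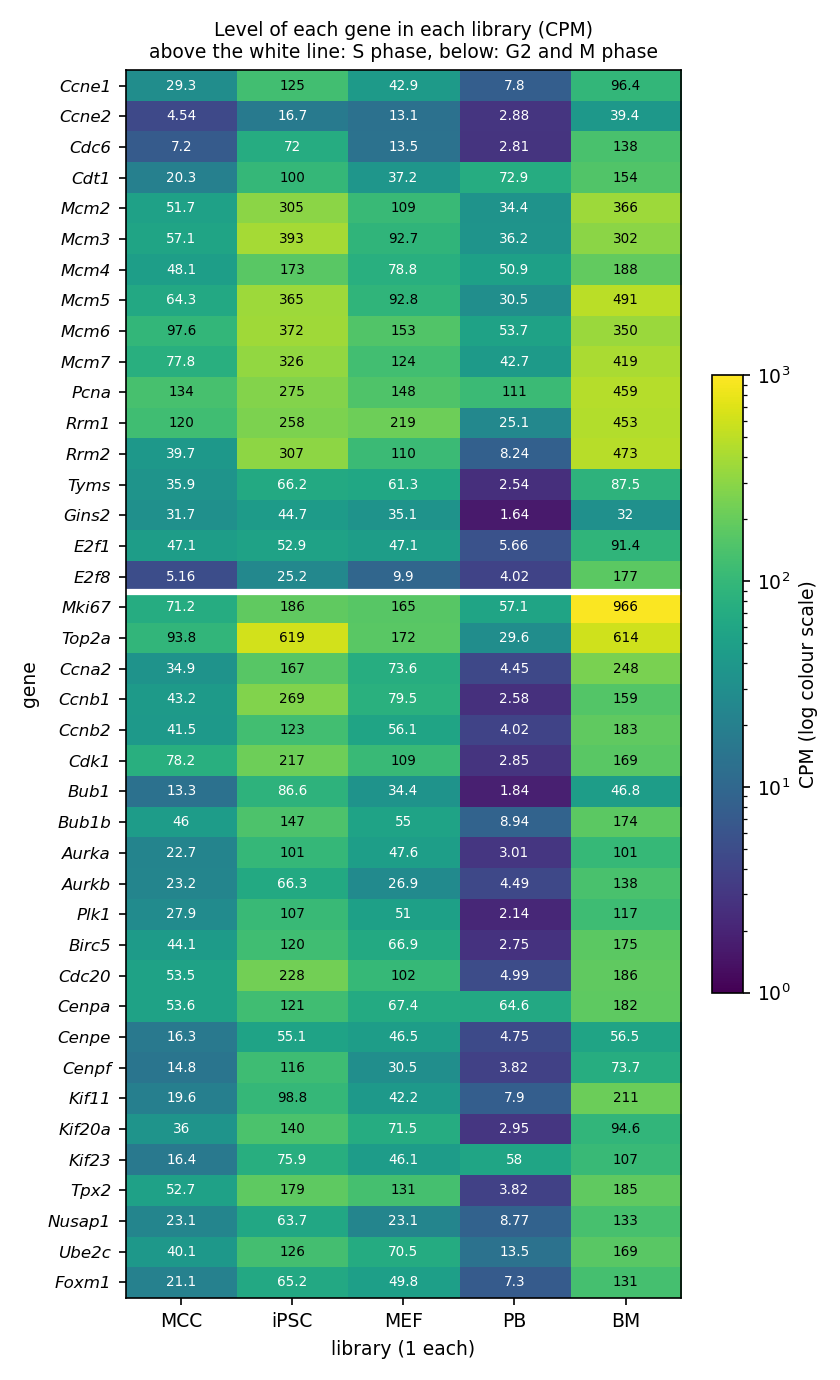
Heat map of the level of each of the 40 genes (CPM, log colour scale, values printed) in the MCC, iPSC, MEF, PB and BM libraries, 1 library per column, with the 17 S phase genes above the white line and the 23 G2 and M phase genes below it. PB is the lowest library for 36 genes and BM the highest for 29. For Cdt1, Cenpa, Kif23 and Mcm4 the lowest library is MCC.

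Origin licensing begins when CDC6 and CDT1 load the MCM helicase. Cdc6 had 7.20 CPM in MCC, 72.05 in iPSC, 13.5 in MEF, 2.81 in PB and 138 in BM. Cdt1 had 20.3 CPM in MCC, 100.5 in iPSC, 37.2 in MEF, 72.9 in PB and 154 in BM. Both loaders were low in MCC and high in BM, but in PB Cdc6 was at its lowest while Cdt1 was at about the middle of its range. Per kilobase of exon, Cdt1 was 43.2 times Cdc6 in PB, and between 1.87 and 4.70 times Cdc6 in the other 4 libraries.

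The 6 subunits of the MCM hexamer, Mcm2 to Mcm7, summed to 397 CPM in MCC, 1934 in iPSC, 649.6 in MEF, 248 in PB and 2116 in BM. Mcm3 had 57.1 CPM in MCC, 393 in iPSC, 92.7 in MEF, 36.2 in PB and 302 in BM. Mcm5 had 64.3, 365, 92.8, 30.5 and 491 CPM in the same order of libraries. Within a library the subunits stayed close: on the per-kilobase scale the highest exceeded the lowest by 2.82-fold in MCC, 2.39-fold in iPSC, 2.09-fold in MEF, 2.87-fold in PB and 2.34-fold in BM. Mcm4 had 48.1 CPM in MCC, 173 in iPSC, 78.8 in MEF, 50.9 in PB and 188 in BM, and was the only subunit with a PB level not below that of MCC. Gins2 encodes a subunit of the GINS complex that activates the helicase, and had 31.7 CPM in MCC, 44.7 in iPSC, 35.1 in MEF, 1.64 in PB and 32.0 in BM. It varied less than any other gene of the 40 over MCC, iPSC, MEF and BM. Of its exon bases, 67.3% lie in exons of Gse1 on the opposite strand, which had 14.6, 35.0, 14.9, 81.7 and 115 CPM, and since the strand setting of the counting is not stated the Gins2 count is uncertain. The same holds in smaller measure for Kif20a (29.3% of exon bases, shared with Cdc23), Ube2c (22.8%, Tnnc2), Ccne2 (17.4%, Ints8) and Ccna2 (12.5%, Exosc9).

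The replication clamp and the nucleotide enzymes were less alike. Pcna, the sliding clamp, had 134 CPM in MCC, 275 in iPSC, 148 in MEF, 111 in PB and 459 in BM, and was the highest of the 40 genes per kilobase in every library except iPSC. Ribonucleotide reductase makes deoxynucleotides from a large subunit, Rrm1, and a small subunit, Rrm2. Rrm1 had 120.3 CPM in MCC, 258 in iPSC, 219 in MEF, 25.1 in PB and 453 in BM. Rrm2 had 39.7 CPM in MCC, 307 in iPSC, 110.2 in MEF, 8.24 in PB and 473 in BM, a wider range than Rrm1. Per kilobase, Rrm2 was 1.31 times Rrm1 in MCC, 4.72 times in iPSC, 1.996 times in MEF, 1.30 times in PB and 4.15 times in BM, so the small subunit stood out in the libraries with the highest summed levels. Tyms, thymidylate synthase, had 35.9 CPM in MCC, 66.2 in iPSC, 61.3 in MEF, 2.54 in PB and 87.5 in BM.

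The regulators within the S phase class differed in kind. E2f1 encodes an activating E2F factor, and had 47.1 CPM in MCC, 52.9 in iPSC, 47.1 in MEF, 5.66 in PB and 91.4 in BM. E2f8 encodes an atypical E2F that represses E2F targets late in S phase, and had 5.16 CPM in MCC, 25.2 in iPSC, 9.90 in MEF, 4.02 in PB and 177 in BM. The activator was nearly level over MCC, iPSC and MEF, whereas the repressor stood far higher in BM than anywhere else. Per kilobase, E2f1 was 15.7 times E2f8 in MCC, 3.62 times in iPSC, 8.22 times in MEF, 2.43 times in PB and 0.890 times in BM. The E-type cyclins activate CDK2 at the start of S phase. Ccne1 had 29.3 CPM in MCC, 125 in iPSC, 42.9 in MEF, 7.80 in PB and 96.4 in BM. Ccne2 had 4.54 CPM in MCC, 16.7 in iPSC, 13.1 in MEF, 2.88 in PB and 39.4 in BM. Ccne1 was the higher of the pair per kilobase in every library, by 9.81-fold in iPSC and by 3.21-fold in BM.

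Among the G2 and mitosis genes, the cyclins and Cdk1 form the kinase that starts mitosis. Ccna2 had 34.9 CPM in MCC, 167 in iPSC, 73.6 in MEF, 4.45 in PB and 248 in BM. Ccnb1 had 43.2 CPM in MCC, 269 in iPSC, 79.5 in MEF, 2.58 in PB and 159 in BM. Cdk1, whose promoter is shown above, had 78.2 CPM in MCC, 217 in iPSC, 109 in MEF, 2.85 in PB and 169 in BM. Ccnb1 and Cdk1 were highest in iPSC, and Ccna2 in BM. Ccnb2 had 41.5 CPM in MCC, 123 in iPSC, 56.1 in MEF, 4.02 in PB and 183 in BM; per kilobase it was 1.26 times Ccnb1 in iPSC and between 1.94 and 4.29 times Ccnb1 in the other libraries. A processed copy, Ccnb2-ps, had 63 reads in PB beside 120 for Ccnb2, so the exact PB level of Ccnb2 is uncertain. Both counts were small beside the 1793 reads of Ccnb2 in MCC and 7444 in BM. Foxm1, the factor that activates many of these genes, had 21.1 CPM in MCC, 65.2 in iPSC, 49.8 in MEF, 7.30 in PB and 131 in BM.

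Kinases and the spindle checkpoint followed the cyclins. Plk1, a kinase needed for centrosome maturation and exit from mitosis, had 27.9 CPM in MCC, 107 in iPSC, 51.0 in MEF, 2.14 in PB and 117 in BM. Aurka, which acts at spindle poles, had 22.7 CPM in MCC, 100.6 in iPSC, 47.6 in MEF, 3.01 in PB and 101 in BM. Aurkb, the kinase of the chromosomal passenger complex, had 23.2, 66.3, 26.9, 4.49 and 138 CPM in the same order. Per kilobase Aurka was above Aurkb in MCC (1.14 times), iPSC (1.77 times) and MEF (2.06 times) and below it in PB (0.782 times) and BM (0.858 times). Birc5, the survivin subunit of that complex, had 44.1 CPM in MCC, 120.1 in iPSC, 66.9 in MEF, 2.75 in PB and 175 in BM. Bub1 and Bub1b encode checkpoint kinases that delay anaphase. Bub1 had 13.3 CPM in MCC, 86.6 in iPSC, 34.4 in MEF, 1.84 in PB and 46.8 in BM. Bub1b had 46.0, 147, 54.96, 8.94 and 174 CPM in that order. Cdc20 had 53.5 CPM in MCC, 228 in iPSC, 102 in MEF, 4.99 in PB and 186 in BM, and Ube2c, the ubiquitin-conjugating enzyme that works with the same complex, had 40.1, 126, 70.5, 13.5 and 169 CPM. All 8 genes were lowest in PB, and Bub1 and Cdc20 were highest in iPSC.

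Centromere proteins and kinesins held the clearest departures. Cenpa, the histone H3 variant that marks centromeres, had 53.6 CPM in MCC, 120.5 in iPSC, 67.4 in MEF, 64.6 in PB and 182 in BM. Kif23, a kinesin of the central spindle needed for cytokinesis, had 16.4 CPM in MCC, 75.9 in iPSC, 46.1 in MEF, 58.0 in PB and 107 in BM. Neither showed the low PB level of its class. Cenpe, a kinesin at kinetochores, had 16.3, 55.1, 46.5, 4.75 and 56.5 CPM in MCC, iPSC, MEF, PB and BM, and Cenpf, a large kinetochore protein, had 14.8, 116, 30.5, 3.82 and 73.7 CPM. Kif11, the motor that pushes spindle poles apart, had 19.6, 98.8, 42.2, 7.90 and 211 CPM in those libraries. Kif20a, a kinesin of cytokinesis, had 36.0, 140.4, 71.5, 2.95 and 94.6 CPM. These 4 genes were all below 8 CPM in PB, unlike Kif23 and Cenpa. Per kilobase, Kif23 was 6.93 times Kif11 in PB and between 0.479 and 1.03 times Kif11 elsewhere, and Cenpa was 20.003 times Cenpe in PB and between 2.13 and 4.84 times Cenpe elsewhere. Tpx2, an activator of Aurora A on the spindle, had 52.7, 179, 131, 3.82 and 185 CPM, and Nusap1, a microtubule-bundling protein, 23.1, 63.7, 23.1, 8.77 and 133 CPM in MCC, iPSC, MEF, PB and BM.

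Mki67, the gene of the Ki-67 antigen that coats mitotic chromosomes, had 71.2 CPM in MCC, 186 in iPSC, 165 in MEF, 57.1 in PB and 966 in BM. Top2a had 93.8 CPM in MCC, 619 in iPSC, 172 in MEF, 29.6 in PB and 614 in BM. The pair parted in iPSC, where Top2a was level with BM and Mki67 was not. Per kilobase, Mki67 was 0.680 times Top2a in MCC, 0.268 times in iPSC, 0.858 times in MEF, 1.73 times in PB and 1.41 times in BM. Mki67 made up 8.03% of the summed CPM of the 23 genes in MCC, 5.34% in iPSC, 10.2% in MEF, 18.8% in PB and 20.9% in BM.

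MCC was first set against MEF, since the series title names fibroblasts as the cells to be converted. All 40 genes had a lower level in MCC, none by 4-fold. The median log2 ratio of the 40 was -0.87, beside -0.01 over the 11720 genes at 5 CPM in either library. By the 4-fold rule 0 were higher, where 8.05% of all genes tested were, and 0 were lower, where 2.71% were. At 2-fold, 13 of the 40 were lower, beside 10.1% of genes tested, and 50.6% of genes tested were lower by any amount. Those furthest apart were Ccne2, 2.90-fold lower (2.46 to 3.42), Cenpe, 2.85-fold lower (2.62 to 3.11), Kif23, 2.82-fold lower (2.58 to 3.07), and Rrm2, 2.78-fold lower (2.63 to 2.94). E2f1 and Nusap1 were level, with counting intervals of 0.941 to 1.06 and 0.917 to 1.10 for their folds, and Pcna was 1.10-fold lower (1.06 to 1.14). By its point value no gene of the 40 was thus more than 3-fold apart, though the intervals of Ccne2, Cenpe and Kif23 reached past 3-fold.

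Against iPSC, 18 of the 40 genes were at least 4-fold lower in MCC and 0 higher, beside 9.77% lower and 11.3% higher of 12442 genes tested. Their log2 ratios had a median of -1.94, against 0.14 over all genes tested, and all 40 were below 0, beside 45.8% of genes tested. At 2-fold, 37 were lower, beside 19.2%. The 18 were 9 of the 17 S phase and 9 of the 23 G2 and mitosis genes. Cdc6 was 10.01-fold lower (8.91 to 11.3), Cenpf 7.82-fold (7.21 to 8.50), Rrm2 7.75-fold (7.37 to 8.15) and Mcm3 6.89-fold (6.60 to 7.18). At the other end, E2f1 was 1.12-fold lower (1.06 to 1.19) and Gins2 1.41-fold lower (1.32 to 1.51).

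Against bone marrow, 22 of the 40 genes were at least 4-fold lower in MCC and 0 higher, beside 13.5% lower and 15.6% higher of 12427 genes tested. They were 9 S phase and 13 G2 and mitosis genes, and the median log2 ratio was -2.11, against 0.11 over all genes tested. All 40 were below 0, beside 47.2% of genes tested, and 38 were at least 2-fold lower, beside 24.8%. E2f8 was 34.4-fold lower, Cdc6 19.1-fold (17.05 to 21.5), Mki67 13.6-fold (13.1 to 14.1), Rrm2 11.9-fold (11.3 to 12.5) and Kif11 10.8-fold. Gins2 was level at 1.01-fold lower (0.935 to 1.09), and E2f1 was 1.94-fold lower (1.84 to 2.05). Exons of another gene, on the other strand, cover 11.2% of the E2f8 exon bases.

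Against blood cells the direction turned. Of the 39 genes tested, MCC was higher by 4-fold or more in 18 and lower in 0, beside 21.5% higher and 15.4% lower of 12545 genes tested. Over the 40 the median log2 ratio was 1.84, against 0.38 over all genes tested, and 36 were above 0, beside 57.4% of genes tested. At 2-fold, 28 were higher and 2 lower, beside 38.6% and 26.0%. The 18 were 5 S phase and 13 G2 and mitosis genes. Cdk1 was 27.5-fold higher (22.2 to 34.5), Gins2 19.3-fold (14.5 to 26.3), Ccnb1 16.7-fold (13.3 to 21.3) and Birc5 16.1-fold (12.9 to 20.3). On the other side, Cdt1 was 3.59-fold lower in MCC (3.32 to 3.89), Kif23 3.54-fold lower (3.24 to 3.87) and Cenpa 1.21-fold lower (1.13 to 1.28), while Mcm4 was level at 1.06-fold lower (0.99 to 1.13). Cdt1 and Kif23 thus stood apart from their classes in PB. Pcna was 1.21-fold higher in MCC, a direction that turned when DESeq2 size factors scaled the libraries (log2 0.27, and -0.01 on that scale).

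Blood and bone marrow differed most. In PB 36 of the 40 genes were at least 4-fold lower than in BM and 0 higher, beside 9.68% lower and 6.32% higher of 11377 genes tested. All 40 were lower, beside 56.9% of genes tested, with a median log2 ratio of -4.28, against -0.18 over all. Birc5 was 63.8-fold lower, Ccnb1 61.6-fold (49.2 to 78.2), Cdk1 59.3-fold (47.9 to 74.4) and Rrm2 57.4-fold (50.6 to 65.4). The 4 genes short of the rule were Kif23 at 1.84-fold lower (1.74 to 1.95), Cdt1 at 2.12-fold (2.01 to 2.22), Cenpa at 2.81-fold (2.67 to 2.96) and Mcm4 at 3.70-fold (3.50 to 3.91), and Pcna was just past it at 4.12-fold (3.98 to 4.28). They lie apart in the genome, Kif23 on mm10 chromosome 9 (61915905 to 61946774), Cdt1 on chromosome 8 (122568015 to 122573554), Cenpa on chromosome 5 (30666777 to 30674830) and Mcm4 on chromosome 16 (15623897 to 15637400). None has exon bases shared with a gene on the opposite strand. Kif23 and Cenpa each hold a CHR element and a CCAAT box in the promoter window, like most of their class, and the Cdt1 window holds an E2F site. Cenpa and Kif23 together were 40.3% of the summed CPM of the G2 and mitosis genes in PB, against 6.25% in BM, and between 5.65% and 7.89% in MCC, iPSC and MEF. Cdt1 and Pcna together were 37.3% of the S phase sum in PB and 14.2% in BM. Per kilobase, Kif23 ranked 9th of the 40 in PB and 35th in BM.

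**Figure D3:**
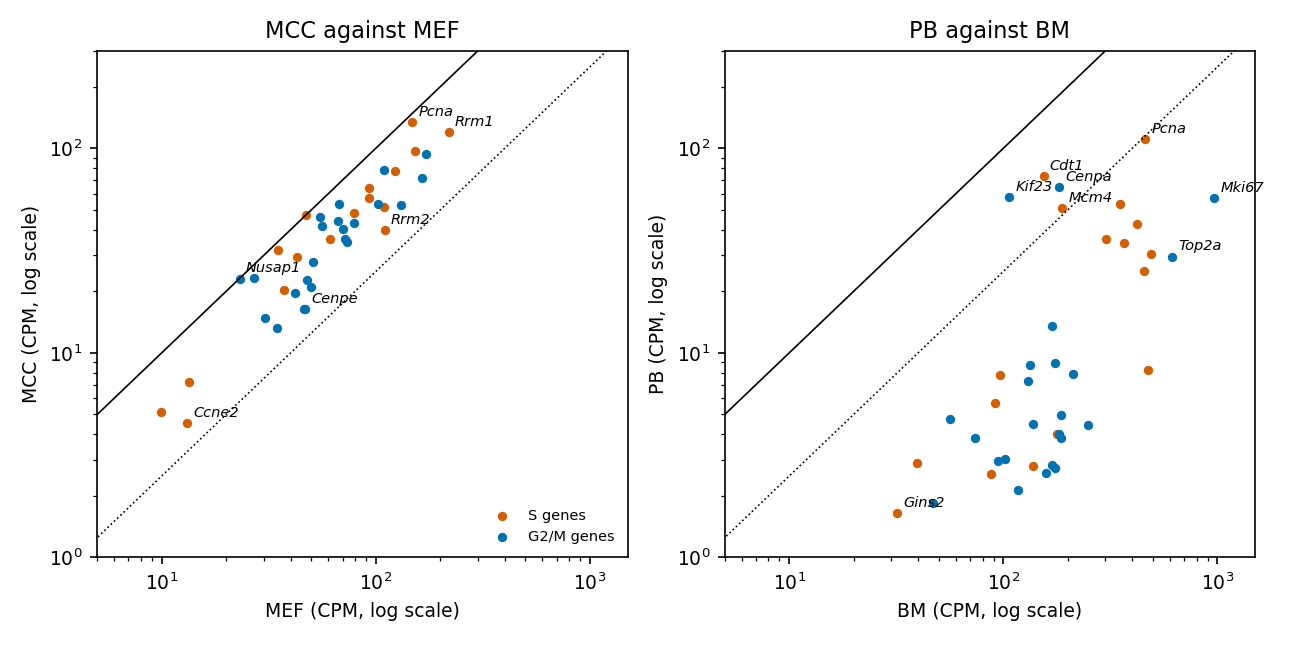
Level of each of the 40 genes in pairs of libraries (CPM, log axes), MCC (y) against MEF (x) and PB (y) against BM (x), with a solid line at equality and a dotted line at 4-fold lower. All 40 points lie at or below equality in both panels, within 4-fold for MCC and MEF, and beyond it for 36 genes in PB.

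Markers of blood precursors were read beside this difference, and the lists did not all run the same way. The 5 granulocyte precursor genes summed to 8.47 CPM in PB and 5144 CPM in BM, with 0 of 5 at 5 CPM in PB and 5 of 5 in BM. The 10 erythroid genes summed to 71767 CPM in PB, mostly haemoglobin, and 9759 CPM in BM. By gene, 3 of the 10 were highest in PB (Alas2, Hba-a1 and Hbb-bs) and 7 in BM, among them the factor Klf1 (chosen with its values known) at 0.368 CPM in PB and 161 CPM in BM. The 8 early B cell genes, which include the Cd79a gene of mature B cells, summed to 525 CPM in PB and 438 CPM in BM, with 5 of 8 at 5 CPM in PB and 8 of 8 in BM, and 2 genes highest in PB and 6 in BM. The 10 genes of later neutrophils summed to 6299 CPM in PB and 62664 CPM in BM, and the 8 T cell genes to 962 CPM in PB and 90.7 CPM in BM. In MCC, iPSC and MEF the granulocyte precursor genes summed to 1.39, 1.65 and 0.208 CPM. The T cell genes summed to 4.03, 10.7 and 2.10 CPM there, the later neutrophil genes to 6.48, 1.01 and 0.139 CPM, the early B cell genes to 49.5, 2.75 and 37.7 CPM and the erythroid genes to 15.4, 4.09 and 1.04 CPM. Ebf1 alone held 48.9 CPM of the early B cell sum in MCC and 37.1 CPM in MEF. In MCC as in MEF, 1 of these 8 genes reached 5 CPM. Lck alone held 9.09 CPM of the T cell sum in iPSC. The part of these cell types in the levels of the 40 genes was not tested.

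In iPSC all 40 genes were higher than in MEF, as were 44.8% of genes tested, 2 by at least 4-fold and 0 lower by it, beside 8.83% higher and 6.37% lower of 11931 genes tested. The 2 were Cdc6 at 5.34-fold (4.90 to 5.84) and Mcm3 at 4.24-fold (4.10 to 4.39). Their median log2 ratio was 1.15, against -0.11 over all genes tested, and 24 of the 40 were at least 2-fold higher, beside 16.4% of genes tested. Tyms and Mki67 were nearly level, at 1.08-fold (1.03 to 1.14) and 1.12-fold (1.09 to 1.16) higher.

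The 2 libraries with the highest sums, iPSC and BM, were compared after their values were seen. By the 4-fold rule 0 of the 40 were higher and 2 lower in iPSC, beside 15.5% higher and 15.6% lower of 12621 genes tested. The 40 log2 ratios had a median of -0.41, against 0.04 over all genes tested, and at 2-fold 7 were lower, beside 26.1%. The 2 genes were E2f8, 7.05-fold lower (6.64 to 7.48), and Mki67, 5.20-fold lower (5.09 to 5.32). E2f8 lies on mm10 chromosome 7 at 48866429 to 48881596, and Mki67 on the same chromosome at 135689784 to 135716361. The genes highest in iPSC relative to BM were Bub1, 1.85-fold higher (1.75 to 1.95), Ccnb1, 1.69-fold higher (1.64 to 1.74), and Cenpf, 1.57-fold higher (1.504 to 1.64). All 3 act from G2 to anaphase, but S phase genes were also among those higher in iPSC. By class, 4 of 17 S phase genes and 7 of 23 G2 and mitosis genes were higher there. The other 38 genes lay within 2.36-fold, and 11 of the 40 were higher in iPSC, beside 50.8% of genes tested. On total counts Mcm4, Bub1b, Aurka, Plk1, Cenpe and Tpx2 turned to the iPSC side, giving 17, and with DESeq2 size factors Top2a turned to the BM side.

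**Figure D4:**
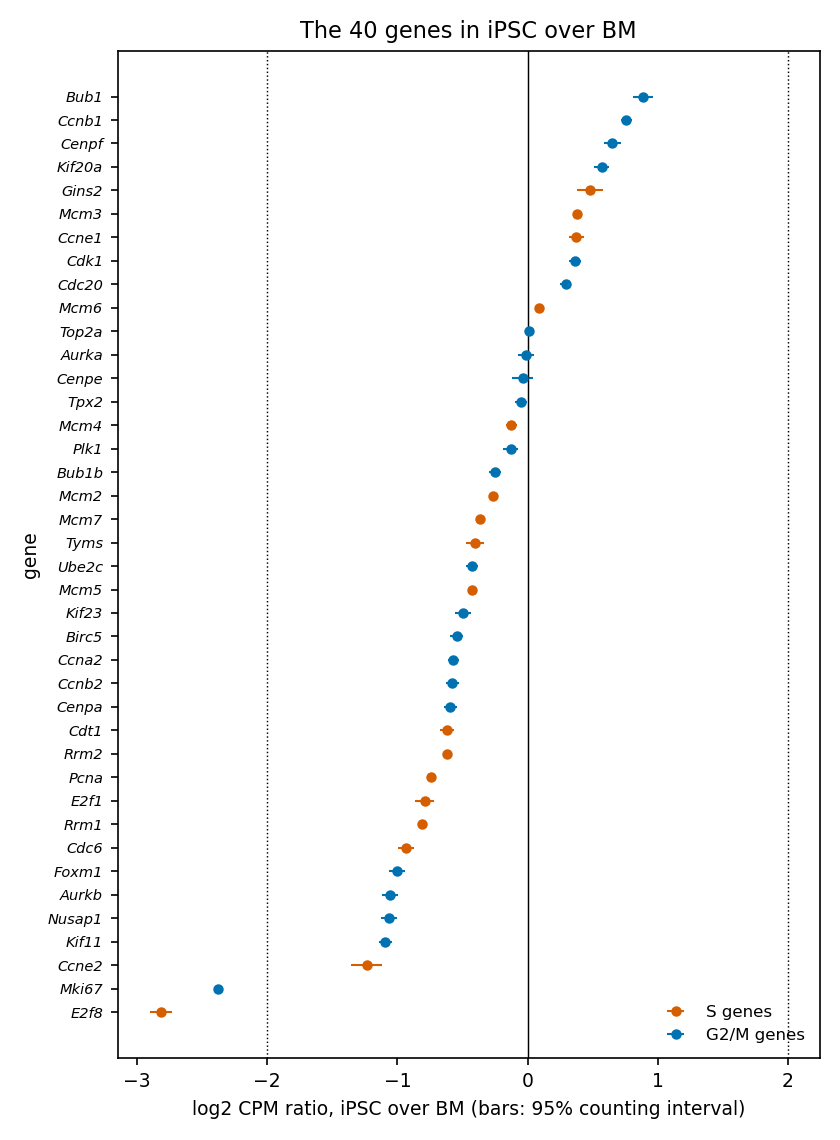
Log2 ratio of iPSC over BM (x axis) for each of the 40 genes, ordered by size, with S phase and G2 and M phase genes in separate colours, 95% counting intervals as bars and lines at 4-fold. E2f8 and Mki67 lie beyond 4-fold lower in iPSC, and 11 genes lie above 0.

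**Figure D5:**
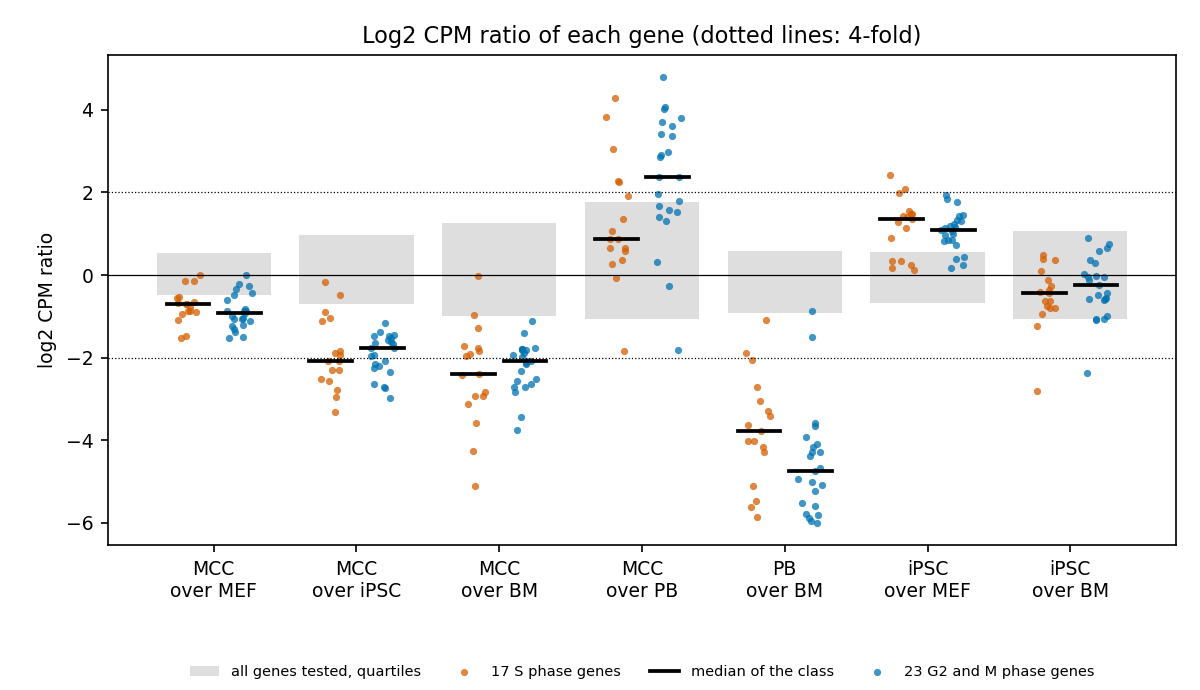
Log2 CPM ratio (y axis) of each of the 40 genes in the 7 comparisons (x axis), 1 point per gene, with black bars at the class medians, grey boxes for the quartiles of all genes tested and dotted lines at 4-fold. No gene lies above 0 for MCC over MEF, iPSC or BM or for PB over BM, and 36 lie above 0 for MCC over PB.

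The S phase and the G2 and mitosis classes moved nearly together except in blood. The summed CPM of the S phase genes was 0.983 times that of the G2 and mitosis genes in MCC, 0.943 times in iPSC, 0.857 times in MEF, 1.62 times in PB and 0.935 times in BM. On the per-kilobase scale the ratios were 0.984, 0.988, 0.857, 2.60 and 1.06 in the same order, again with PB apart. The median log2 ratio of PB over BM was -3.77 for the S phase genes and -4.74 for the G2 and mitosis genes, a difference of 0.96. That of MCC over PB was 0.86 and 2.37, a difference of -1.504. These 2 comparisons share the PB library. In PB over BM, the MCM genes were 3.70-fold (Mcm4) to 16.1-fold (Mcm5) lower, and the nucleotide enzymes Rrm1, Tyms and Rrm2 were 18.03-fold, 34.4-fold and 57.4-fold lower. The S phase genes of PB were thus unequal among themselves, with the helicase, Pcna and Cdt1 nearer to BM than the nucleotide enzymes. The 2 groups met at Mcm5 and Rrm1, whose intervals overlapped (15.1 to 17.2 and 16.8 to 19.4). Other S phase genes were also far from BM, with Cdc6 48.9-fold and E2f8 44.2-fold lower. Between MCC and MEF the class medians were -0.71 for the S phase genes and -0.93 for the G2 and mitosis genes. With MCC over iPSC they were -2.07 and -1.76, with MCC over BM -2.40 and -2.07, with iPSC over MEF 1.35 and 1.08, and with iPSC over BM -0.43 and -0.25. With 1 library per group, no difference between the classes could be tested.

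Other genes of these pathways, from lists of 55 replication and 80 mitosis genes, were read in the same way. Between MCC and MEF 0 of 52 replication and 0 of 79 mitosis genes at 5 CPM passed the 4-fold rule, beside 8.05% higher and 2.71% lower of all genes tested, with median log2 ratios of -0.52 and -0.85 over the whole lists. In MCC against iPSC, 14 of 54 replication and 36 of 80 mitosis genes tested were lower and 0 were higher, beside 9.77% lower and 11.3% higher of all genes tested. Orc1, a subunit of the origin recognition complex, was 15.9-fold lower (13.1 to 19.4), with 10.8% of its exon bases shared with a gene on the other strand, and Ccnf, cyclin F, 8.40-fold lower (7.82 to 9.03). In MCC against BM, 23 of 55 replication and 48 of 80 mitosis genes were lower and 0 higher, beside 13.5% lower and 15.6% higher of all, led by Depdc1b at 46.1-fold lower (36.0 to 59.8) and Dna2, a nuclease and helicase of lagging-strand synthesis, at 28.0-fold lower (23.7 to 33.2). In MCC against PB, 6 of 50 replication genes tested were higher and 2 lower, and 40 of 71 mitosis genes were higher and 1 lower, beside 21.5% higher and 15.4% lower of all genes tested. On the higher side the replication count lay under the share of all genes and the mitosis count over it. Psrc1, a spindle protein gene, was 92.7-fold higher in MCC (60.5 to 150), and Chaf1a, a subunit of a histone chaperone that follows the fork, 4.81-fold higher (4.02 to 5.79). The Chaf1a count is uncertain, since 52.5% of its exon bases lie in exons of Ubxn6 on the opposite strand. The 3 lower genes were Dna2 at 10.2-fold (8.57 to 12.2), Donson, a replication fork protein, at 6.19-fold (5.46 to 7.04), and Smc4, the condensin subunit, at 4.59-fold (4.38 to 4.81). Smc4 had 53.3 CPM in MCC, 105 in iPSC, 92.7 in MEF, 244 in PB and 186 in BM, and was thus a mitotic gene with its highest level in PB.

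In PB against BM, 33 of 55 replication and 70 of 80 mitosis genes were lower and 0 higher, beside 9.68% lower and 6.32% higher of all genes tested, with medians of -2.36 and -4.50, so the replication list was again the nearer of the 2 to bone marrow. Mcm10, which joins the helicase at activation, was 45.7-fold lower (34.9 to 61.2), and Iqgap3, a scaffold protein, 88.3-fold lower (61.4 to 132). In iPSC against MEF, 4 of 54 replication and 4 of 80 mitosis genes were higher and 0 lower, near or under the 8.83% higher of all genes tested and beside 6.37% lower, among them Dna2 at 7.83-fold (6.79 to 9.06) and Ccnf at 5.58-fold (5.26 to 5.93). In iPSC against BM, where 15.5% of all genes tested were higher and 15.6% lower, 0 of 55 replication genes passed, 1 of 80 mitosis genes was higher (Psrc1, 6.67-fold, 6.19 to 7.20) and 2 were lower (Depdc1b, 7.92-fold, 7.18 to 8.77, and the CDK-activating phosphatase gene Cdc25b, 6.17-fold, 5.89 to 6.46). In promoter windows these lists resembled the 40 genes for CHR elements and E2F sites. A CHR element was found in 14.8% of replication and 60.3% of mitosis windows, and an E2F site in 59.3% and 24.4%. CCAAT boxes were less frequent than in the 40 genes, in 44.4% of replication and 67.9% of mitosis windows. The S phase genes had 66.7%, the G2 and mitosis genes 88.9% and all windows 37.4%.

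The 36 regulators that act above these genes did not share a single order. By the 4-fold rule, MCC against MEF had 0 higher and 1 lower of 34 tested, beside 8.05% and 2.71% of all genes tested. Against iPSC 2 were higher and 4 lower of 35 (11.3% and 9.77% of all), and against PB 8 were higher and 3 lower of 35 (21.5% and 15.4% of all), so several of these counts lay near the share over all genes. Against BM 7 were higher and 14 lower of 36 (15.6% and 13.5% of all). In PB against BM 1 was higher and 14 lower of 33 (6.32% and 9.68% of all), in iPSC against MEF 2 and 1 of 35 (8.83% and 6.37%), and in iPSC against BM 6 and 7 of 36 (15.5% and 15.6%). Mybl2, the B-MYB factor of the MuvB complex, had 7.20 CPM in MCC, 338.5 in iPSC, 22.2 in MEF, 3.82 in PB and 128 in BM. It was 47.0-fold lower in MCC than in iPSC (42.0 to 52.8), a larger gap than any of the 40 genes showed there. E2f7, the partner of E2f8, was the only regulator past the rule between MCC and MEF, 4.39-fold lower (3.56 to 5.46). E2f2, an activating E2F, had 4.999 CPM in MCC, 7.82 in iPSC, 1.76 in MEF, 75.6 in PB and 525 in BM. E2f2 thus stood high in the blood libraries alone, unlike E2f1.

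The D-type cyclins, which start the inactivation of RB, differed by library. Ccnd1 had 102.5 CPM in MCC, 294 in iPSC, 91.4 in MEF, 1.44 in PB and 10.5 in BM. Ccnd2 had 277, 27.2, 578, 89.2 and 65.4 CPM, and Ccnd3 had 183, 177, 114, 196 and 701 CPM, in the same order. Each was highest in a different library, Ccnd1 in iPSC, Ccnd2 in MEF and Ccnd3 in BM. Cdkn1a, the p21 inhibitor of CDKs, had 391 CPM in MCC, 199.6 in iPSC, 279 in MEF, 149 in PB and 11.4 in BM, and was 13.1-fold higher in PB than in BM (11.9 to 14.4). Cdkn1b, the p27 inhibitor typical of resting cells, had 48.2, 23.3, 41.0, 358 and 118 CPM in MCC, iPSC, MEF, PB and BM. Cdkn2a, the locus of p16 and ARF, had 169 CPM in MCC, 73.4 in iPSC, 84.4 in MEF, 0.067 in PB and 0.147 in BM. The 7 CDK inhibitor genes on the list had no library in common: Cdkn1a, Cdkn1c and Cdkn2a were highest in MCC, Cdkn1b in PB, Cdkn2b in MEF, and Cdkn2c and Cdkn2d in BM. Rb1 had 26.0, 21.9, 11.7, 95.8 and 97.9 CPM in MCC, iPSC, MEF, PB and BM, and its relative Rbl2 had 31.5, 11.8, 19.4, 80.9 and 61.9 CPM. Both were higher in the blood libraries than in the other 3, in BM as in PB. The third family member, Rbl1, had 10.4, 25.3, 14.9, 37.8 and 95.4 CPM in the same order, and was higher in BM than in PB. Exons of genes on the opposite strand cover 30.7% of the Cdkn1c, 23.4% of the Ccnd1, 14.9% of the Rb1 and 20.97% of the Rbl2 exon bases, so these counts are uncertain.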

How the data were processed

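Whole-number read counts per gene symbol were deposited for 5 libraries, without normalization. The submitters' processing notes name mm10, STAR and featureCounts, with no versions, annotation, filter or strand setting. The table held 34970 symbols, and 0 columns were left unused. The 40 genes and the other gene lists were chosen with earlier results of these data known.

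From the deposited counts, CPM were computed after TMM scaling of the library sizes with edgeR 4.0.16 in R 4.3.3. Ratios, exact 95% Clopper-Pearson intervals (conditional binomial, counting error only) and lists were computed with scipy 1.17.1, pandas 2.3.3 and numpy 2.4.6 under Python 3.11.15, and plots with matplotlib 3.10.9. With 1 library per group no test was made. A call needed 5 CPM or more in the higher library and a ratio of 4-fold or more, counts under 3 being raised to 3. No molecular identifiers are stated, so reads are not independent molecules. The calculation was tested on simulated data.

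Exon lengths, positions and overlaps came from GENCODE M21 on mm10, and CPM per kilobase of merged exons was used to compare genes within a library. Promoter windows came from RefSeq (GRCm38.p6); 8 of the 40 genes had no entry. All 40 genes are described. Of the other lists, the rule took the genes with the largest ratio in each direction in each comparison, a part of which is printed; the regulators given by level over all libraries were chosen after their values were seen. The alternatives were total counts, DESeq2 1.42.0 size factors, scaling without the most abundant genes, other fold and level minimums, summed CPM and a stricter assignment to phases.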

Additional observations from a re-analysis of the deposited data

How the results depend on the processing

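No paired analysis was possible because each group held 1 library, and no library could be left out of a group. Another scaling changed the sign of the ratio of Pcna in MCC over PB and of 7 genes in iPSC over BM, all named above, and of no other ratio of the 40 genes in the 7 comparisons. A 2-fold minimum gave 13 lower for MCC over MEF (0 at 4-fold), 37 lower for MCC over iPSC, 38 lower for MCC over BM, 28 higher and 2 lower for MCC over PB, 24 higher for iPSC over MEF and 7 lower for iPSC over BM.

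Total counts without further scaling shifted the log2 ratio by -0.39 for MCC over iPSC, -0.14 for MCC over BM, -0.13 for MCC over PB, 0.36 for iPSC over MEF and 0.26 for iPSC over BM. MCC over iPSC then had 28 genes lower and a median of -2.33, MCC over BM a median of -2.24, iPSC over MEF 6 higher and a median of 1.51, and iPSC over BM a median of -0.16. Over all genes, the split of higher and lower calls for MCC over iPSC was 1410 and 1215, and 1161 and 1613 on total counts; for iPSC over MEF it was 1054 and 760, and 1358 and 594. DESeq2 size factors shifted MCC over PB by -0.28 and PB over BM by 0.18, and gave medians of -2.20 for MCC over BM and 1.56 for MCC over PB, and 2 genes lower for MCC over PB.

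Ratios of summed CPM in place of medians were -2.34 for MCC over BM, 1.14 for MCC over PB and -3.49 for PB over BM (log2). The difference between the S phase and the G2 and mitosis classes was then 0.060 for MCC over iPSC, 0.073 for MCC over BM, -0.72 for MCC over PB, 0.14 for iPSC over MEF and 0.013 for iPSC over BM (medians -0.31, -0.33, -1.504, 0.27 and -0.18). For MCC over MEF it was 0.22 by medians and 0.20 by sums, and for PB over BM 0.96 and 0.80. The sign thus rested on the summary for MCC over iPSC, MCC over BM and iPSC over BM. A stricter assignment to phases gave -0.15 for MCC over iPSC and -0.15 for MCC over BM. In PB 21 of the 40 genes reached 5 CPM; the lowest, Gins2, had 49 reads there, above the 3-count floor of 0.100 CPM.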
